A study of Mus musculus with 158 samples.

Results

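Pool 2 of an in vivo knockdown screen consisted of 52 short hairpin RNAs against 23 genes, out of 1000 targeting hairpins against 285 genes in 19 pools. Its members were the hairpins that the deposited tables assign to that pool, and they were followed in 9 libraries, 3 in each of 3 arms. All arms used PDA530 Met, a mouse pancreatic cancer cell line. The cells were infected with the pool's virus at a multiplicity of infection of 0.3 and selected for 4 days in 3 µg/ml puromycin, so that every arm, including the start, had passed infection and selection. Day 0 cells were pelleted at the start. Cultured cells were grown for 28 days. Lung tumours were taken 28 days after injection into the tail vein, and all tumours of a mouse were combined into a single DNA sample, so a lung library is 1 mouse and not 1 tumour. The strain, sex and age of the mice were not used here. The day 0 libraries may come from a single pellet, since the protocol speaks of a pellet per pool, and the p-values below then measure only the spread between these libraries. Pool 2 also carried the 8 control hairpins that every pool held.

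A short hairpin RNA is processed by the cell into a small interfering RNA that directs the silencing machinery to a matching mRNA. Because the hairpin is integrated in the genome, its share of the amplified DNA follows the share of living cells that carry it. A hairpin whose cells grow less than the others becomes rarer, and the tail-vein assay adds survival in the circulation, lodging in the lung and outgrowth there to the growth that culture already requires. The genes of pool 2 described here fall into growth signalling (Braf, Ctnnb1, Gnas, Muc1), tumour suppressors and DNA damage (Atm, Cdkn2a, Crebbp, Rb1, Stk11, Tgfbr2), transcription and splicing (Aff2, Srrm2, Zfhx4), synapse and cell surface proteins (Cask, Csmd1, Fam5c, Gria3, Lrp1b), the nuclear envelope (Syne1), and a remainder (Magea6, Tmtc2). Knockdown was not measured in these libraries, and hairpins against the same gene share that target and are not replicates of a condition.

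Each hairpin's level is given here as its share, the percentage of all pool 2 targeting reads in a library. Pool 2 reads numbered 6594130, 8953081 and 10617600 at day 0, 8555483, 4702121 and 4680670 in culture, and 8358756, 1106838 and 2653111 in the lungs, in the order of libraries A, B and C, which is kept throughout. Lung library B was the shallowest, and there 3 reads, the upper limit that a count of 0 allows, correspond to 0.000271% of pool 2 reads. The reads carry no molecular identifiers, so this limit covers counting error only. The culture libraries were mixtures with pool 1, and pool 2 supplied 32.8%, 37.8% and 41.0% of their reads. Hairpins of other pools took 0.385% to 0.5002% of the day 0 libraries and 0.262% to 0.886% of the lung libraries. Pairs of libraries correlated, across the 52 hairpins on the log2 scale, with r of 0.990 to 0.997 at day 0, 0.922 to 0.964 in culture and 0.905 to 0.962 in the lungs. Hairpins are not independent replicates in such a correlation.

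Among the control hairpins, those labelled PIK3CA and MUC1 were lower in every lung library than in any day 0 library. They averaged 0.328 ± 0.0933 in the lungs against 2.10 ± 0.379 at day 0, and 1.03 ± 0.678 against 5.25 ± 0.187, in reads per 100 pool 2 reads (SD, n = 3). A control against Cdkn1b, a brake on the cell cycle, overlapped between the arms at 0.876 ± 0.202 in the lungs and 0.714 ± 0.125 at day 0 (SD, n = 3). A non-targeting control supplied most control reads, with 13.1, 14.0 and 13.4 per 100 at day 0 and 9.66, 13.0 and 8.91 in the lungs. All 8 controls together fell from 24.2 ± 0.363 to 13.0 ± 2.03 reads per 100 (SD, n = 3), without overlap. The log2 difference was -0.91, and the exact two-sided permutation p of 0.1 is the smallest that 3 against 3 libraries can give.

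Every pool 2 hairpin had reads in at least 1 lung library. Hairpins of other pools had reads there too, so low counts alone do not show presence. Reads were found for all 52 hairpins at day 0, for 52, 51 and 51 in culture and for 52, 50 and 51 in the lungs. Their shares were less even after 28 days. The effective number of hairpins, the exponential of the Shannon entropy and so the number of equally common hairpins that would be as diverse, was 32.8, 33.2 and 35.2 at day 0, 24.4, 23.8 and 24.4 in culture and 26.4, 27.7 and 27.2 in the lungs. The 3 arms did not overlap by this measure, with the lowest values in culture. By the number of hairpins with at least 1 read in 1000, lungs and culture overlapped, at 40 to 42 each, below 43 to 48 at day 0. The log2 difference of the effective number from day 0 was -0.32 in the lungs and -0.48 in culture, each with an exact two-sided permutation p of 0.1, the smallest possible here. The 5 most common hairpins took 27.9% ± 1.24 of the reads at day 0, 46.0% ± 0.885 in culture and 37.7% ± 2.27 in the lungs (SD, n = 3). Lung tumours of the 16 other pools with lung values had effective numbers of 6.40 to 31.9, and 2 of them were above the pool 2 mean of 27.1.

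In lung tumours, 20 of the 52 hairpins changed in share relative to day 0, 5 upward and 15 downward, by limma with a Benjamini-Hochberg adjusted p under 0.05 over the hairpins of all pools. Over all pools 38.2% of hairpins passed this test, 9.32% higher and 28.8% lower, so the pool's count was close to the background. The hairpins that rose included TRCN0000175964 against Tmtc2, TRCN0000103531 against Aff2, TRCN0000115060 against Gnas and TRCN0000101373 against Csmd1. The hairpins that fell included those with leading losses against Ctnnb1 and Csmd1 and a pair against Srrm2, the spliceosome scaffold. With the spread shared over pools 13 hairpins were called, and edgeR on the same pool totals called 16 of the 20, without those against Braf, TRCN0000103533 against Aff2, TRCN0000108875 against Syne1 and TRCN0000119610 against Lrp1b. The 3 lung libraries lay entirely above or below the 3 day 0 libraries for 31 of 52 hairpins, where 59.9% of hairpins of all pools did so. The median log2 change was -0.48 in pool 2 and -0.73 over all hairpins tested. In pool 2, 38 of the 52 log2 changes were negative.

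After 28 days of culture, 37 of 52 hairpins differed in share from day 0, 9 upward and 28 downward, where 65.1% of all hairpins passed, 17.2% higher and 47.8% lower. The leading gains were those of TRCN0000112730 against Magea6 and of the Cdkn2a hairpin, and the losses with the lowest adjusted p were those of TRCN0000123439 against Srrm2, the Ctnnb1 hairpin and TRCN0000119610 against Lrp1b. The median log2 change was -0.64 in pool 2 and over all hairpins. Libraries did not overlap for 38 hairpins, against 69.4% over all pools. For culture, the prior degrees of freedom of pool 2 were unbounded, so the smallest p-values reflect a fitted variance trend rather than the 3 libraries of each arm. With the spread shared over the pools that had 3 libraries in both arms (628 hairpins), 36 pool 2 hairpins were called, and DESeq2 called 19.

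Set directly against culture, the lungs held 8 hairpins at a higher and 11 at a lower share, 19 of 52 in all, where 27.2% of all hairpins passed, 12.1% higher and 15.1% lower. The higher group included 1 hairpin each against Tmtc2, Srrm2, Aff2 and Magea6. The lower group had 3 Csmd1 hairpins, 2 Fam5c hairpins, 2 Aff2 hairpins and 1 each against Cdkn2a, Magea6, Cask and Gria3. The libraries did not overlap for 23 hairpins, against 41.1% over all pools, and the median log2 difference was -0.14 in pool 2 and -0.26 over all hairpins. The 3 comparisons share libraries, so their values are given side by side below and are not separate evidence.

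The split between gains and losses depends on what a share is measured against. With TMM scaling, which sets the typical hairpin near 0 (median log2 change of all hairpins -0.13 in the lungs, -0.10 in culture and -0.11 between them), 17, 36 and 17 pool 2 hairpins were called, where 33.8%, 60.6% and 24.9% of all hairpins were. Of these calls 52.9%, 47.2% and 52.9% were higher, against 25%, 24.3% and 42.1% by share. Measured against the control hairpins, 88.9% of 18 lung calls were higher, and 5 called losses turned to log2 changes of 0.03 to 0.55, those of TRCN0000119345 against Fam5c, TRCN0000115056 against Gnas, TRCN0000176179 against Tmtc2, TRCN0000123439 against Srrm2 and TRCN0000103533 against Aff2. The authors' scaling, as deposited, gave 53.3% of 15. In culture libraries the controls belong to both pools of the mixture, so control scaling does not measure a change of pool 2 there. How the authors scaled the deposited values is not given, so those values are not read as changes of pool 2 in culture either. Control and deposited scaling gave 4.65% and 5% of culture calls and 100% and 96% of direct calls as higher. Both turned the sign of some culture gains, among them those of TRCN0000102931 against Gria3 and TRCN0000101372 against Csmd1. Changes below are therefore changes in share relative to the rest of the pool, and the calls that TMM scaling ends or adds are named for the hairpins described.

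Among growth signalling genes, 4 of 6 hairpins fell in the lungs, 1 rose and 1 did not pass. In culture 5 fell and 1 did not pass. Over all pools 28.8% of hairpins fell in the lungs and 47.8% in culture. With TMM scaling 2 fell and 1 rose in the lungs, and 4 fell and 1 rose in culture. The single hairpin against Ctnnb1, which encodes beta-catenin, a cell adhesion protein and the transcriptional effector of Wnt signalling, held 1.06%, 1.23% and 1.21% at day 0. It held 0.140%, 0.114% and 0.142% in culture and 0.112%, 0.0828% and 0.146% in the lungs. All 6 later libraries lay far below day 0, and culture and lungs overlapped. Its log2 change was -3.39 ± 0.33 (SE) in the lungs, with a limma adjusted p of 0.000179, and -3.15 ± 0.22 in culture, while lungs and culture differed by -0.24 ± 0.32 (adjusted p = 0.588). The Muc1 hairpin, against a mucin of epithelial surfaces that is abundant in pancreatic cancer, held 0.144%, 0.189% and 0.232% at day 0, 0.0893%, 0.0543% and 0.0756% in culture and 0.0512%, 0.0679% and 0.0709% in the lungs. It fell by 1.56 ± 0.39 on the log2 scale (SE) in the lungs and by 1.37 ± 0.34 in culture (limma adjusted p = 0.0136 and 0.000314). All 6 later libraries lay below day 0 for the Muc1 hairpin too, and DESeq2 did not call its culture loss.

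Gnas, which encodes the stimulatory G protein alpha subunit that couples receptors to cyclic AMP, had hairpins that moved in opposite directions. TRCN0000115056 held 2.06%, 2.13% and 1.92% at day 0, 0.793%, 1.21% and 0.957% in culture and 1.11%, 1.09% and 1.12% in the lungs. It was lower in all 6 later libraries, by -0.88 ± 0.18 in the lungs and -1.07 ± 0.15 in culture (log2, SE, limma adjusted p = 0.00594 and 1.09e-09), but its lung call was lost with TMM scaling (-0.51, adjusted p = 0.0684). TRCN0000115060 held 2.09%, 2.22% and 2.76% at day 0 and 3.00%, 5.07% and 3.55% in the lungs, above day 0 in every library. Its gain of 0.69 ± 0.21 (SE, limma adjusted p = 0.0282) lost its call when lung library C or any day 0 library was left out, with log2 changes of 0.48 to 0.86 over the left-out fits and adjusted p up to 0.109. TRCN0000115059 fell in culture from 1.68% ± 0.189 to 1.07% ± 0.0350 (SD, n = 3), which TMM scaling did not call (-0.14, adjusted p = 0.399), and its lung change of -0.56 ± 0.24 (SE) did not pass (adjusted p = 0.101). In culture TRCN0000115060 was called higher with TMM scaling (0.74, adjusted p = 0.000146) and not by share.

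The hairpin against Braf, the kinase that relays Ras signals to the MAP kinase cascade, was too rare for a firm value. It held 728, 809 and 794 reads at day 0, 206, 0 and 0 in culture and 307, 0 and 0 in the lungs. Within culture A, all 206 reads came from the first of the 2 sequencing runs. The change was called in both arms (limma adjusted p = 0.0496 in the lungs and 0.000882 in culture), yet the lung call was lost when any library except lung library A was left out, where adjusted p reached 0.145. Over all left-out fits the log2 change ran from -6.52 to -3.90. TMM scaling ended it as well, with an adjusted p of 0.0679.

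None of the 6 hairpins against tumour suppressors and DNA damage genes was called in the lungs against day 0, where 9.32% of all hairpins rose and 28.8% fell. At an unadjusted limma p under 0.05, 1 of them was lower and 0 were higher, and edgeR called 0 and DESeq2 1. In culture 2 rose and the other 4 did not pass, where 17.2% of all hairpins rose and 47.8% fell. TMM scaling called 3 higher there, and DESeq2 called 2 higher and 1 lower. Cdkn2a, which encodes the cell cycle inhibitors p16Ink4a and p19Arf, was represented by TRCN0000222731. This hairpin held 5.16%, 5.92% and 5.85% at day 0, 11.9%, 13.4% and 13.5% in culture and 5.19%, 5.27% and 5.38% in the lungs. It was the most common hairpin of every culture library, whereas all 3 lung libraries lay within the range of day 0. The log2 change was 1.19 ± 0.09 in culture (SE, limma adjusted p = 5.77e-26) and -0.09 ± 0.10 in the lungs (adjusted p = 0.472), and lungs were below culture by -1.29 ± 0.07 (adjusted p = 1.49e-05).

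The Rb1 hairpin, against the retinoblastoma protein that holds cells before DNA synthesis, held 0.561%, 0.588% and 0.879% at day 0 and 1.56%, 1.43% and 1.31% in culture. In the lungs it held 0.511%, 2.65% and 0.594%. Every culture library was above day 0, while a single mouse, B, had a high lung share and the other lung libraries were near day 0. Its culture gain was 1.11 ± 0.19 (log2, SE, limma adjusted p = 1.62e-07), and its lung change of 0.49 ± 0.59 did not pass (adjusted p = 0.534). The hairpin against Atm, the kinase that signals DNA breaks, averaged 0.724% ± 0.0326 at day 0, 0.761% ± 0.167 in culture and 0.537% ± 0.157 in the lungs (SD, n = 3), and passed no comparison by share. With TMM scaling its culture change of 0.56 was called (adjusted p = 0.00644).

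The other members of this group were among the rarest of the pool. The hairpin against Tgfbr2, a receptor for TGF-beta, held 0.0219%, 0.0255% and 0.0406% at day 0 and 0.0147%, 0.00407% and 0.00482% in the lungs, below day 0 in every library but not called (log2 -2.08 ± 0.77, SE, limma adjusted p = 0.0603). This was the hairpin that DESeq2 called. The hairpin against Stk11, the kinase LKB1 that activates AMPK, averaged 0.00432% at day 0, 0.000526% in culture and 0.00200% in the lungs. Its culture change of -3.19 ± 1.49 (log2, SE) was not called (limma adjusted p = 0.0510), but DESeq2 called it lower, as did limma with the spread shared over pools (adjusted p = 0.0326). The hairpin against Crebbp, a histone acetyltransferase, held 131, 17749 and 414 reads in the culture libraries, so that its culture mean was set by library B, and none of its changes passed. Of the 9 pool 2 hairpins under 0.1% at day 0, the median SE of the lung change was 0.77, against 0.35 for the 13 hairpins between 0.1% and 1% and 0.19 for the 30 at 1% or more. Changes of rare hairpins were therefore the least precise.

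Transcription and splicing genes had 9 hairpins, of which 4 fell and 1 rose in the lungs and 7 fell and 1 rose in culture, where 28.8% and 47.8% of all hairpins fell. With TMM scaling 2 fell and 1 rose in the lungs, and 4 fell and 2 rose in culture. Srrm2 encodes a scaffold protein of the spliceosome and nuclear speckles. TRCN0000123439 held 4.32%, 4.25% and 4.46% at day 0, 0.678%, 0.679% and 0.743% in culture and 2.12%, 2.26% and 3.38% in the lungs. The 3 arms did not overlap, and the lungs lay between the others. The log2 change was -2.63 ± 0.17 in culture and -0.78 ± 0.18 in the lungs (SE, limma adjusted p = 2.31e-35 and 0.00989), and the lungs were above culture by 1.85 ± 0.24 (adjusted p = 0.001). Its lung loss was not called without day 0 library C (adjusted p = 0.0640) or with TMM scaling (-0.41, adjusted p = 0.104).

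TRCN0000123442 against Srrm2 held 3.92%, 3.51% and 3.06% at day 0, 2.17%, 1.65% and 1.56% in culture and 1.48%, 1.68% and 1.62% in the lungs. Both later arms were below day 0 and overlapped each other, with log2 changes of -0.97 ± 0.15 in culture and -1.13 ± 0.16 in the lungs (SE, limma adjusted p = 2.78e-08 and 0.00102). The Srrm2 hairpin TRCN0000123443 fell in culture by 1.24 ± 0.18 on the log2 scale (adjusted p = 3.18e-09). In the lungs it held 0.940%, 0.334% and 0.474% after 0.884%, 0.909% and 0.782% at day 0, with lung library A above day 0 and the others below, and its change of -0.69 ± 0.37 did not pass (adjusted p = 0.172). By share, all 3 Srrm2 hairpins fell in culture and 2 of 3 in the lungs, while DESeq2 called 1 of 3 lower in each arm and TMM scaling 1 of 3 in the lungs.

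Aff2, a subunit of complexes that promote transcription elongation, had 4 hairpins that did not move together. TRCN0000103531 held 6.63%, 5.93% and 5.45% at day 0, 4.89%, 4.66% and 5.41% in culture and 13.9%, 10.9% and 11.6% in the lungs. It was the most common hairpin of every lung library, and each lung library was well above every other library. Its lung gain was 1.01 ± 0.11 on the log2 scale (SE, limma adjusted p = 0.000239) and its lung level exceeded culture by 1.28 ± 0.11 (adjusted p = 0.000152). The small culture loss of -0.27 ± 0.11 (adjusted p = 0.0310) was no longer called without culture library A or B or day 0 library A or B (changes of -0.33 to -0.19, adjusted p up to 0.184), and TMM scaling turned it to 0.25 (adjusted p = 0.0809).

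A second Aff2 hairpin, TRCN0000103532, went the other way. It held 1.62%, 1.60% and 1.96% at day 0, 0.908%, 1.05% and 1.03% in culture and 0.608%, 0.712% and 0.687% in the lungs, in 3 arms without overlap. It fell by 1.36 ± 0.23 in the lungs and by 0.79 ± 0.16 in culture (log2, SE, limma adjusted p = 0.00223 and 7.61e-06), and the culture call was lost with TMM scaling (adjusted p = 0.0916). Lungs and culture differed by -0.57 ± 0.18 (adjusted p = 0.0478), a call lost without lung library A or C or any culture library (-0.64 to -0.50, adjusted p up to 0.162) and with TMM scaling (adjusted p = 0.0511). TRCN0000103533 held 5.77%, 5.33% and 4.96% at day 0, 7.64%, 7.32% and 7.65% in culture and 4.34%, 4.60% and 3.59% in the lungs. It was higher in culture by 0.50 ± 0.11 (adjusted p = 2.34e-05) and lower in the lungs than in culture by -0.86 ± 0.11 (adjusted p = 0.001). Its lung loss of -0.36 ± 0.12 (adjusted p = 0.0451) was lost without lung library C or any day 0 library (-0.44 to -0.26, adjusted p up to 0.144), and TMM scaling put it at 0.01 (adjusted p = 0.979). The remaining Aff2 hairpin, TRCN0000103530, stayed between 2.69% and 3.72% in all libraries and passed no test by share, and TMM scaling called a culture gain of 0.33 (adjusted p = 0.0453).

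Zfhx4, which encodes a large zinc finger and homeobox transcription factor, had 2 hairpins that both fell in culture and were not called in the lungs. TRCN0000075531 went from 0.943% ± 0.199 at day 0 to 0.408% ± 0.0726 in culture and was at 0.682% ± 0.181 in the lungs (SD, n = 3), higher than in culture with TMM scaling (0.81, adjusted p = 0.0476) and not by share. Its culture change was -1.20 ± 0.18 (log2, SE, limma adjusted p = 2.23e-09). TRCN0000075532 averaged 0.0713% at day 0, 0.0327% in culture and 0.0221% in the lungs. Its culture loss of -1.07 ± 0.45 (adjusted p = 0.0304) was not called without culture library A or B or day 0 library B or C (-1.33 to -0.73, adjusted p up to 0.161), or with TMM scaling (adjusted p = 0.227).

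The 17 hairpins against synapse and cell surface genes included 4 that fell and 1 that rose in the lungs, and 7 that fell and 4 that rose in culture, where 28.8% and 47.8% of all hairpins fell. TMM scaling called 3 lower and 2 higher in the lungs, and turned the culture split to 7 higher and 4 lower. Against culture, 7 were lower in the lungs and 10 did not pass, where 15.1% of all hairpins were lower, and TMM scaling called 5 lower. Within this group, the lung loss with the lowest adjusted p belonged to Csmd1, which encodes a large membrane protein with complement-control domains. Its hairpin TRCN0000101370 held 0.826%, 0.862% and 0.994% at day 0, 0.556%, 0.595% and 0.590% in culture and 0.134%, 0.0985% and 0.0700% in the lungs. The lung libraries were all far below both other arms, by -3.19 ± 0.35 from day 0 and -2.57 ± 0.30 from culture (log2, SE, limma adjusted p = 0.000239 and 0.000674). Its culture loss of -0.62 ± 0.18 (adjusted p = 0.00213) was not called with TMM scaling (-0.11, adjusted p = 0.566).

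The other Csmd1 hairpins did not share that loss. TRCN0000101373 held 3.84%, 3.59% and 3.18% at day 0, 7.19%, 6.63% and 5.87% in culture and 4.67%, 4.08% and 4.94% in the lungs. Its culture gain was 0.89 ± 0.12 (log2, SE, limma adjusted p = 4.59e-11). The lung gain of 0.37 ± 0.13 (adjusted p = 0.0460) was lost without lung library A or C or any day 0 library (0.29 to 0.45, adjusted p up to 0.117), and the difference of lungs from culture, -0.52 ± 0.11 (adjusted p = 0.0125), was not called with TMM scaling (adjusted p = 0.0766). TRCN0000101372 rose in culture from 3.23% ± 0.389 to 4.58% ± 0.200 and was at 3.43% ± 0.227 in the lungs (SD, n = 3), with log2 changes of 0.51 ± 0.13 and 0.09 ± 0.14 (SE), and TMM scaling called its lung change too (0.46, adjusted p = 0.0274). Its difference of lungs from culture of -0.42 ± 0.10 (adjusted p = 0.0221) was lost without lung library A or culture library B or C (-0.46 to -0.36, adjusted p up to 0.0851). TRCN0000101371 was called in no comparison.

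Fam5c, now named Brinp3, encodes a neural protein, and its 4 hairpins did not move alike. TRCN0000119345 held 2.09%, 1.89% and 1.73% at day 0, 2.02%, 2.52% and 2.56% in culture and 0.865%, 1.42% and 0.889% in the lungs, with all lung libraries below the other arms. Lungs were below culture by -1.19 ± 0.26 (log2, SE, limma adjusted p = 0.0115). Its loss from day 0 of -0.88 ± 0.25 (adjusted p = 0.0222) was not called without lung library C or any day 0 library (-1.11 to -0.75, adjusted p up to 0.0863), or with TMM scaling (adjusted p = 0.152), which in turn called a culture gain of 0.82 (adjusted p = 7.02e-05). TRCN0000119344 held 1.09%, 0.980% and 1.06% in culture and 0.665%, 0.431% and 0.401% in the lungs, a difference of -1.10 ± 0.24 (adjusted p = 0.0125). Its culture gain of 0.43 ± 0.19 (adjusted p = 0.0381) was lost without culture library A or C or day 0 library A or B (0.36 to 0.56, adjusted p up to 0.167). TRCN0000119343 fell in culture from 1.67% ± 0.0900 to 0.691% ± 0.119 (SD, n = 3; log2 -1.29 ± 0.18, SE), and in the lungs held 1.38%, 0.459% and 1.61%, with mouse B low and the others near day 0. TRCN0000119342 was called in no comparison.

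Lrp1b encodes a large endocytic receptor of the LDL receptor family. TRCN0000119610 held 0.512%, 0.595% and 0.675% at day 0, 0.0333%, 0.0449% and 0.0716% in culture and 0.333%, 0.0366% and 0.0897% in the lungs. All later libraries were below day 0, and lung library A was the highest of them. The log2 change was -3.63 ± 0.30 in culture and -2.52 ± 0.71 in the lungs (SE, limma adjusted p = 3.98e-24 and 0.0241), and the lung call was lost without lung library C or day 0 library A or C (-3.36 to -1.77, adjusted p up to 0.129). TRCN0000119611 fell in culture from 2.12% ± 0.140 to 1.17% ± 0.136 (SD, n = 3) and held 3.28%, 0.779% and 1.15% in the lungs. Mouse A was therefore the highest of the 3 for both Lrp1b hairpins.

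Cask, a scaffold kinase of synapses and epithelial junctions, had 3 hairpins, of which 1 was called by share. TRCN0000024263 held 0.834%, 0.889% and 1.15% at day 0, 0.626%, 0.552% and 0.621% in culture and 0.441%, 0.265% and 0.269% in the lungs, in 3 arms without overlap. It fell by 1.59 ± 0.30 in the lungs and by 0.66 ± 0.19 in culture (log2, SE, limma adjusted p = 0.00405 and 0.00123), the latter not called with TMM scaling (adjusted p = 0.434). The difference of -0.92 ± 0.27 between lungs and culture (adjusted p = 0.0383) was lost without lung library B or C or any culture library (-1.17 to -0.80, adjusted p up to 0.108) and with TMM scaling (adjusted p = 0.0743). TRCN0000024261 held 0.138%, 0.173% and 0.196% at day 0, 0.216%, 0.145% and 0.193% in culture and 0.115%, 0.103% and 0.0250% in the lungs. Its lung libraries were below both other arms, but the lung change of -1.32 ± 0.59 (adjusted p = 0.109) and the difference of -1.45 ± 0.60 from culture (adjusted p = 0.124) did not pass. In culture it passed with TMM scaling (0.63, adjusted p = 0.0323) and not by share. TRCN0000024260 was called in no comparison.

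None of the 4 hairpins against Gria3, a subunit of AMPA-type glutamate receptors, was called by limma in the lungs, where their log2 changes ran from -0.45 to 0.02. At an unadjusted p under 0.05, 0 passed, and edgeR and DESeq2 called 0. In culture TRCN0000102931 rose from 3.73%, 3.53% and 3.03% to 4.64%, 5.78% and 5.40%, while the lungs held 3.52%, 3.37% and 3.51%, within the day 0 range. The culture gain was 0.62 ± 0.13 and the lungs were below culture by -0.60 ± 0.11 (log2, SE, limma adjusted p = 9.73e-06 and 0.00677). TRCN0000102930 and TRCN0000102932 fell in culture, by 1.91 ± 0.45 and 0.50 ± 0.14, the second not with TMM scaling (0.01, adjusted p = 0.959), and TRCN0000102933 passed in culture with TMM scaling (0.35, adjusted p = 0.0299) and not by share.

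Syne1, which encodes nesprin-1 and links the nuclear envelope to actin, had 1 hairpin lower in each arm. TRCN0000108875 held 1.30%, 1.24% and 1.21% at day 0 and 0.513%, 1.05% and 0.493% in the lungs, and its loss of -0.96 ± 0.32 (log2, SE, limma adjusted p = 0.0432) was not called without lung library C or any day 0 library (-1.31 to -0.77, adjusted p up to 0.132), or with TMM scaling (adjusted p = 0.199). TRCN0000108876 fell in culture by 0.69 ± 0.26 with overlapping libraries (adjusted p = 0.0192). This call was lost without culture library A or day 0 library C (-0.90 to -0.34, adjusted p up to 0.228) and with TMM scaling (adjusted p = 0.608).

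Tmtc2 encodes an endoplasmic reticulum protein of the family that mannosylates cadherins, and TRCN0000175964 against it had the largest lung gain of pool 2. It held 1.38%, 1.41% and 1.26% at day 0, 0.968%, 0.772% and 0.528% in culture and 3.66%, 4.07% and 4.63% in the lungs. Every lung library was above, and every culture library below, all of day 0. The mean lung share was 3.04 times that of day 0, with a log2 change of 1.60 ± 0.16 (SE, limma adjusted p = 0.000179), and 5.45 times that of culture, with a log2 difference of 2.48 ± 0.26 (adjusted p = 0.000387). Its culture loss of -0.88 ± 0.19 (adjusted p = 2.75e-05) was not called with TMM scaling (-0.37, adjusted p = 0.0950).

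The second Tmtc2 hairpin did not rise. TRCN0000176179 held 4.01%, 4.07% and 3.97% at day 0, 2.00%, 1.16% and 1.23% in culture and 1.67%, 3.19% and 2.30% in the lungs. All 6 later libraries were below day 0. Its log2 change was -1.50 ± 0.16 in culture and -0.80 ± 0.22 in the lungs (SE, limma adjusted p = 2.19e-15 and 0.0184), and the lung call was lost without lung library C or day 0 library A or C (-1.04 to -0.57, adjusted p up to 0.0981), or with TMM scaling (adjusted p = 0.152). The pair of Tmtc2 hairpins was therefore called in opposite directions in the lungs and in the same direction in culture.

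Magea6 belongs to the melanoma antigen family, normally expressed in the testis. TRCN0000112730 held 3.68%, 3.62% and 3.18% at day 0, 11.2%, 11.9% and 9.61% in culture and 5.31%, 3.03% and 4.08% in the lungs. It was far above day 0 in every culture library, whereas the lung libraries lay on both sides of day 0. The culture gain of 1.64 ± 0.11 was the largest of the pool there, and the lungs were below culture by -1.43 ± 0.20 (log2, SE, limma adjusted p = 7.09e-34 and 0.00167). TRCN0000112734 fell in culture from 3.29% ± 0.356 to 1.73% ± 0.355 and was at 2.88% ± 0.283 in the lungs (SD, n = 3), with a culture change of -0.94 ± 0.16 (adjusted p = 8.65e-08). Its lung excess over culture of 0.75 ± 0.20 (adjusted p = 0.0261) was lost without lung library C or culture library A or B (0.65 to 0.92, adjusted p up to 0.0932).

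Hairpins against the same gene were not always called alike. Of the 14 genes with at least 2 hairpins, hairpins were called in both directions for 4 genes in the lungs, for 6 in culture and for 2 when these arms were set against each other. At least 2 hairpins fell and none rose for 1 gene in the lungs (Srrm2) and for 6 genes in culture, and every hairpin fell for 4 genes in culture (Lrp1b, Srrm2, Tmtc2 and Zfhx4). With TMM scaling 1 Srrm2 hairpin fell in the lungs, and in culture both Lrp1b and all 3 Srrm2 hairpins fell but 1 each of the Tmtc2 and Zfhx4 hairpins. The median range between hairpins of a gene was 1.52 in the lungs and 1.59 in culture on the log2 scale. These counts were not made for the genes of other pools, nor the ranges for hairpins of unrelated genes. Whether hairpins of a gene agree more or less than other hairpins was therefore not tested.

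Read hairpin by hairpin, 12 of the 52 passed none of the 3 comparisons. Another 8 fell in both arms without a difference between lungs and culture, among them those against Ctnnb1 and Muc1, and 9 fell in culture with no other call. A further 5 rose in culture, were not called in the lungs against day 0 and were lower in the lungs than in culture, which includes the hairpin against Cdkn2a and TRCN0000112730 against Magea6. The pattern of a rise in the lungs, a fall in culture and a direct difference between them was found for 3 hairpins, among them TRCN0000175964 (Tmtc2) and TRCN0000103531 (Aff2). These patterns were not counted for the hairpins of other pools, so whether this pool stands apart in them was not tested. The 3 comparisons share libraries, so the calls that make up a pattern are linked.

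Other pools held 28 further hairpins against 14 of the 23 genes, in separately infected cells. For lungs against day 0, 10 of them were tested, and 6 fell and 1 rose, where 28.8% of all hairpins fell and 9.32% rose. Hairpins against Ctnnb1 and Muc1 fell in each pool that was tested in the lungs. The Ctnnb1 hairpins TRCN0000012690 and TRCN0000012692 of pool 1 changed in the lungs by -3.32 ± 0.33 and -3.07 ± 0.31 (log2, SE, limma adjusted p = 0.000464 and 0.000495), near the -3.39 of pool 2. In culture they changed by -0.70 ± 0.13 and -1.44 ± 0.09 (adjusted p = 0.000668 and 2.53e-07), and the lungs were below culture by -2.62 ± 0.39 and -1.62 ± 0.36 (adjusted p = 0.000305 and 0.00537), a difference that did not pass for the pool 2 hairpin. Lung shares were much less even in pool 1 than in pool 2. The mean effective number of pool 1 was 6.40 in the lungs against 24.0 at day 0, and that of pool 2 was 27.1 against 33.7. How far this moved the lung changes of pool 1 hairpins, including those against Stk11 below, was not tested. The Muc1 hairpin TRCN0000108855 of pool 4 also fell in the lungs, by 2.97 ± 0.41, and in culture, by 1.54 ± 0.18 (adjusted p = 0.0029 and 0.000123). It was lower in the lungs than in culture by -1.43 ± 0.41 (adjusted p = 0.0417), a difference that did not pass for the Muc1 hairpin of pool 2.

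The Braf hairpins of pool 4 changed in the lungs by -7.24 ± 1.74 (TRCN0000054345, rare at 0.0578% of its pool at day 0) and 0.75 ± 0.17 (TRCN0000054346), both called by limma (adjusted p = 0.0222 and 0.0164). Stk11, too rare in pool 2 to judge, had a pool 1 hairpin, TRCN0000024144, that fell in the lungs from 1.78% ± 0.0373 to 0.551% ± 0.0705 of its pool's reads (SD, n = 3; log2 -1.70 ± 0.22, SE, adjusted p = 0.00118) and a second, TRCN0000024146, that did not pass (-0.30 ± 0.22, adjusted p = 0.315). The Rb1 hairpin TRCN0000055378 of pool 1, at 0.0133% of its pool at day 0, fell in culture by 2.19 ± 0.71 (adjusted p = 0.0194), opposite to the Rb1 hairpin of pool 2, while TRCN0000218099 of pool 3 changed by 3.08 ± 1.92 (adjusted p = 0.2), which did not pass. In culture 20 hairpins of other pools against pool 2 genes were tested, of which 8 fell and 2 rose, where 47.8% of all hairpins fell and 17.2% rose. The Cdkn2a hairpin TRCN0000257162 of pool 3 changed by 1.83 ± 0.68 (adjusted p = 0.0508), the Tmtc2 hairpin TRCN0000249554 of pool 3 rose by 1.09 ± 0.14 (adjusted p = 0.00053), opposite to both Tmtc2 hairpins of pool 2, and the Zfhx4 hairpin TRCN0000350576 of pool 3 fell by 0.65 ± 0.18 (adjusted p = 0.0167), in the direction of both Zfhx4 hairpins of pool 2. For pool 3 only 2 day 0 libraries had values, and lung values of that pool were not analysed here.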

How the data were processed

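Hairpin DNA was counted in cells and lung tumours of pool 2, in 9 libraries from 10 sequenced samples (a technical repeat of culture A was summed with its first run). Per the submitters' processing notes, BWA 0.5.9 was used; how reads were counted and scaled, and the build, is not given in the sources used here. The tables list a normalised read signal deposited by the authors. Each value was divided by the smallest value of its library, taken as 1 read. Of 27241 values over the series, 27241 (100%) came out whole within 0.01 reads, so read counts could be recovered from the deposited signal, and a hairpin without a value was taken as 0 reads. Of 158 samples, 10 held no values.

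Reads of a pool's targeting hairpins were scaled to their sum in the library (CPM of the pool's own reads). With a pseudocount of 1, each pool's log2 values entered limma 3.58.1 (R 4.3.3; trend and robust estimation) with the 2 arms compared. The filter was a mean of at least 10 reads, and all 52 of pool 2 were tested. Called means a Benjamini-Hochberg adjusted p under 0.05 over all pools. The design assumed this fit for scaled values and used edgeR 4.0.16 and DESeq2 1.42.0 on recovered reads as alternatives. Log2 changes of hairpins with libraries at 0 reads depend on the pseudocount. Prior degrees of freedom in pool 2 were 5.22 for lungs against day 0 and 3.32 for lungs against culture. Left-out fits dropped 1 library at a time. The fit was tested on simulated data.

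Text names, per comparison, the 8 higher and 8 lower called hairpins with the lowest p, every hairpin with at least 5% of a culture or lung library, and the other hairpins gene by gene; some hairpins that these rules name are not reported here. Roles were assigned after the genes were known, and the members, lists and rules were chosen with earlier results of these data known. Of 23 gene symbols, 22 matched RefSeq as written. Hairpin sequences and positions were not used here.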

Additional observations from a re-analysis of the deposited data

Results flagged for a closer look

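The shares of 3 hairpins changed in opposite directions from day 0 in lung tumours and in culture, each with a called direct difference between the arms by limma. How often hairpins of other pools did so was not counted. The log2 difference of lungs minus culture was 2.48 for TRCN0000175964 against Tmtc2 and 1.28 for TRCN0000103531 against Aff2, which were higher in the lungs, and -0.86 for TRCN0000103533 against Aff2, which was lower there. The Tmtc2 hairpin kept both opposite calls when each library was left out in turn, and with TMM scaling its fall in culture was not called. Both Aff2 hairpins lost 1 of their opposite calls when some single libraries were left out and with TMM scaling, the fall in culture of TRCN0000103531 and the fall in the lungs of TRCN0000103533. In the same mice, the other Tmtc2 hairpin fell in both arms and the other 3 Aff2 hairpins were not called higher in the lungs.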

How the results depend on the processing

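Of the calls by share, 10 of 20 in the lungs, 33 of 37 in culture and 15 of 19 between lungs and culture were made in every fit that left out 1 library, and 9, 27 and 14 also with TMM scaling in the same direction and with edgeR on pool totals. Leaving out 1 library gave 11 to 27 calls in the lungs, 34 to 38 in culture and 15 to 26 between them. The lung count was 12, 12, 13 and 11 without lung library C or day 0 library A, B or C. With the spread shared over pools it was 13, DESeq2 called 19 hairpins in culture, and control scaling called 38 between lungs and culture; the causes were not tested.

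Control scaling reversed 5 called losses for lungs against day 0, those of TRCN0000115056 of Gnas (0.0316), TRCN0000123439 of Srrm2 (0.13), TRCN0000103533 of Aff2 (0.55), TRCN0000176179 of Tmtc2 (0.11) and TRCN0000119345 of Fam5c (0.03). For culture against day 0, control and deposited scaling reversed gains that include those of TRCN0000102931 of Gria3 (-0.19 and -0.13), TRCN0000103533 (-0.31 and -0.26), TRCN0000101372 of Csmd1 (-0.30 and -0.24) and TRCN0000119344 of Fam5c (-0.38 and -0.32). For lungs against culture, control scaling reversed 10 of the 11 lower calls, all except that of TRCN0000101370 of Csmd1. Both scalings reversed TRCN0000103533 (0.86 and 0.21), TRCN0000103532 of Aff2 (1.15 and 0.49), TRCN0000102931 (1.12 and 0.47), TRCN0000101373 (1.20 and 0.54) and TRCN0000101372 (1.30 and 0.65) of Csmd1 and TRCN0000024263 of Cask (0.79 and 0.14), and control scaling alone reversed Cdkn2a (0.43), TRCN0000112730 of Magea6 (0.29), TRCN0000119345 (0.53) and TRCN0000119344 (0.62). In culture, control scaling uses controls of both mixed pools, and how the deposited values were scaled is not given.

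The log2 change of evenness was -0.48 in the lungs and -0.76 in culture by the inverse Simpson index, and -0.13 and -0.11 by the number of hairpins with at least 1 read in 1000. The controls changed by -0.42 relative to the median pool 2 hairpin, and by -2.207 as a mean of single controls.

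With the letter as a replicate block, 18, 39 and 16 hairpins were called. Same-letter libraries did not all deviate together (r of 0.10, -0.16 and 0.30 for lungs with day 0, 0.42, 0.10 and 0.59 for culture with day 0, -0.04, -0.60 and 0.42 for lungs with culture), and not every library correlated best with its own letter, so they were not treated as pairs. Depth limits the rarest hairpins, above all in lung library B.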

Other observations

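Some hairpins of other pools were found in pool 2 libraries. The pool 1 hairpin TRCN0000094205 against Lama1, a laminin chain of basement membranes, took 0.694% of lung library B, against 0.0772% to 0.0991% of the day 0 libraries and 0.0649% and 0.0790% of the other lung libraries. The pool 1 hairpin TRCN0000012692 against Ctnnb1 took 0.0582% of lung library A and 0.000948% or less of the others.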
